A study of Mus musculus with 8 samples.

Results

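The transforming growth factor-β (TGF-β) pathway was examined in primary murine articular chondrocytes through 10 genes: the ligands *Tgfb1*, *Tgfb2* and *Tgfb3*, the receptors *Tgfbr1*, *Tgfbr2* and *Tgfbr3*, and the intracellular mediators *Smad2*, *Smad3*, *Smad4* and *Smad7*. They were chosen by gene symbol, and all 10 are among the 54658 symbols of the count table. The cells were isolated from the cartilage of femoral heads, taken from wild-type mice at 3 weeks of age, and were held in high-glucose medium with fetal bovine serum. After seeding, 4 samples received IL-1β at 1 ng/mL and 4 received vehicle, for 24 h, and total RNA was sequenced. These are isolated cells in monolayer, outside their matrix, and serum can itself carry TGF-β. The labels do not say whether the samples of a group came from separate mice or cultures, so the p-values measure only the spread between these samples, which may be technical.

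TGF-β ligands are secreted in a latent complex with their own propeptide and a latent TGF-β binding protein. Once released, a ligand binds the type II receptor encoded by *Tgfbr2*, which phosphorylates the type I receptor encoded by *Tgfbr1*. The type I receptor phosphorylates SMAD2 and SMAD3, which join SMAD4 and enter the nucleus, while SMAD7 is an inhibitor made in response to the signal. In cartilage the pathway is known for sustaining matrix synthesis and holding back chondrocyte hypertrophy.

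Total counts per sample ranged from 10992355 to 17104351 with IL-1β and from 13970959 to 17456063 with vehicle, and 1 symbol, *Gm26917*, held 13.2 to 14.6% of them. Levels are CPM (counts scaled to library size) with TMM factors, which lay between 0.984 and 1.01. Of the 54658 symbols, 14404 had a CPM above 1 in at least 4 samples and entered edgeR's quasi-likelihood test, and all 10 TGF-β genes were among them. A gene is said to rise or fall at a Benjamini-Hochberg adjusted p-value under 0.05, and a DEG (differentially expressed gene) also passed a log2 fold change of 1 in either direction. The 8 chondrocyte markers were present in all samples and fell with IL-1β, and their summed level was 4192 to 4605 CPM against 16162 to 16784 CPM with vehicle. Markers of endothelium, osteoclasts, red cells and skeletal muscle summed to under 2 CPM in every sample. Of 8 leukocyte markers, *Cd68* and *Cd14* rose and *Lyz2* fell, while *Adgre1*, *Itgam* and *Tyrobp* had at most 3 counts in any sample. Of 5 fibroblast and perichondrial markers, *Pdgfra* and *Pdpn* rose, while *Thy1*, *Pi16* and *Dpt* were too scarce to be tested. The list summed to 68.9 to 71.9 CPM with IL-1β and 33.7 to 35.7 CPM with vehicle. *Dpt* had no more than 3 counts in any sample. The 4 osteoblast markers summed to 25.9 to 31.5 CPM with IL-1β and 84.3 to 95.2 CPM with vehicle, and 3 of them fell.

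With IL-1β, the co-receptor gene *Tgfbr3* rose 3.73-fold, the ligand genes moved in opposite directions, with *Tgfb1* higher and *Tgfb2* and *Tgfb3* lower, and the SMAD genes differed by little. Of the 10 genes, 3 rose (*Tgfb1*, *Tgfbr3* and *Smad4*), against 20.4% of all genes tested, and 5 fell (*Tgfb2*, *Tgfb3*, *Tgfbr2*, *Smad3* and *Smad7*), against 19.8%. Thus 8 of 10 passed the test where 40.2% of all genes tested did. *Tgfbr3* was the only DEG of the 10, against 5.21% of all genes tested, of which 2.86% were upregulated and 2.35% were downregulated. In 8 of the 10 genes, the same that passed the test, the IL-1β and vehicle samples did not overlap, as in 36.8% of all genes tested. Of these, 3 lay above vehicle throughout, against 18.7% of all genes tested, and 5 below, against 18.2%. The median log2 fold change was -0.13 over the 10 genes and -0.0012 over all genes tested, and the median of its absolute value was 0.27 and 0.16, respectively. In bulk samples such as these, fewer cells of a type and less RNA per cell cannot be told apart.

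**Figure D1:**
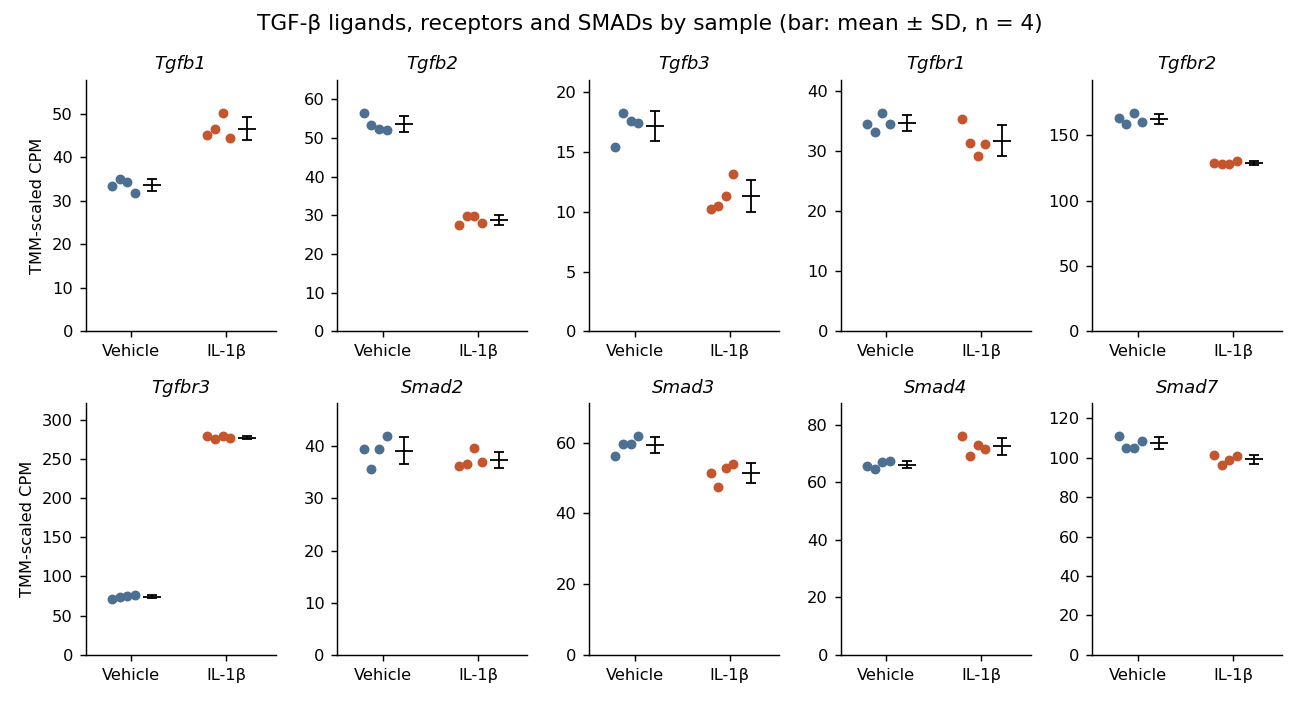
Level of each of the 10 genes in TMM-scaled CPM, with every sample as a point (vehicle in blue, IL-1β in orange) and the mean ± SD of 4 samples as a black bar, on axes that start at 0. The groups are apart in 8 panels and overlap in those of *Tgfbr1* and *Smad2*, and *Tgfbr3* has the widest gap, from 71.4 to 76.6 CPM with vehicle to 274.6 to 278.7 CPM with IL-1β.

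The ligand genes were compared first. *Tgfb1* (ENSMUSG00000002603.15, chromosome 7, 25687002 to 25705077, GRCm38, plus strand) encodes TGF-β1, the isoform that is stored in large amounts in cartilage matrix. It had 45.1, 46.5, 50.4 and 44.5 CPM in IL-1β replicates 1 to 4 and 33.5, 35.0, 34.4 and 31.8 CPM in vehicle replicates 1 to 4. The lowest IL-1β sample was above the highest vehicle sample, and the rise amounted to 0.47 on the log2 scale (standard error 0.0495, adjusted p = 4.94e-09 from edgeR), or 1.39-fold with a 95% interval of 1.29 to 1.49.

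*Tgfb2* (ENSMUSG00000039239.14, chromosome 1, 186622792 to 186705989, minus strand) encodes TGF-β2, which binds the type II receptor weakly and depends on the co-receptor TGFBR3 for efficient signaling. Its levels were 27.5, 29.7, 29.9 and 28.0 CPM with IL-1β and 56.5, 53.3, 52.4 and 52.0 CPM with vehicle. The groups were far apart, by -0.89 on the log2 scale (standard error 0.0476, adjusted p = 2.33e-15 from edgeR). The fold, 0.538 with a 95% interval of 0.503 to 0.576, did not reach the threshold of a DEG. Of its exon bases, 2.14% are shared with *Gm29491* on the opposite strand, which had 1 to 10 counts per sample.

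*Tgfb3* (ENSMUSG00000021253.7, chromosome 12, 86056745 to 86079041, minus strand) encodes TGF-β3, an isoform widely used to drive chondrogenesis in culture. It was the least abundant of the 10 genes, with 113 to 190 counts per IL-1β sample and 246 to 316 counts per vehicle sample. These gave 10.2, 10.5, 11.3 and 13.2 CPM with IL-1β and 15.4, 18.3, 17.6 and 17.4 CPM with vehicle. IL-1β replicate 4 was the highest of its group and vehicle replicate 1 the lowest of its own, yet the groups did not overlap. The log2 difference came to -0.60 (standard error 0.0879, adjusted p = 2.17e-06 from edgeR), or 0.661 as a fold (95% interval 0.583 to 0.749). Of its exon bases, 12.4% are shared with 2 annotated genes of the opposite strand, *Gm37804* and *Gm48008*, which had at most 3 counts in any sample.

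Since *Tgfb1* and *Tgfb2* moved in opposite directions, the sequences upstream of their transcription start sites are given side by side. The table of RefSeq promoters (GRCm38.p6) held 5 of the 10 genes, namely *Tgfb1*, *Tgfb2*, *Tgfbr1*, *Tgfbr2* and *Smad3*, whereas *Tgfb3*, *Tgfbr3*, *Smad2*, *Smad4* and *Smad7* were not matched. Each stretch holds the 250 bases before the start, read 5′ to 3′ on the strand of the gene, with motif matches in capitals. The first is chr7:25686752-25687001, plus strand, and the second is chr1:186705990-186706239, minus strand.
Tgfb1: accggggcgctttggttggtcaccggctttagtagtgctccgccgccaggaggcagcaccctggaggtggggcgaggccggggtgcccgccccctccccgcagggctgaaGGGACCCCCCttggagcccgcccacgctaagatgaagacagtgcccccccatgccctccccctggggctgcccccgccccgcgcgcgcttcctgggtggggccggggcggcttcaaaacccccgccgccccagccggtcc
Tgfb2: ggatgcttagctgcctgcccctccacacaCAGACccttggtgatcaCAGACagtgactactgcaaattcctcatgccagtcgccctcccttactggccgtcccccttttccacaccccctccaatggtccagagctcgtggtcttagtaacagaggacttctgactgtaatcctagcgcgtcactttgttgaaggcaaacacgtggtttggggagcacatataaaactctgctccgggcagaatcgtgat
The motifs searched, on both strands and in the 250 bases before and 50 bases after a start, were the core of the SMAD-binding element CAGAC, the AP-1 site TGANTCA and the NF-κB consensus. *Tgfb1* held 1 match to the NF-κB consensus, beginning at base -140 from the start, and none of the other motifs. *Tgfb2* held 2 matches to CAGAC, beginning at -221 and -204, and none of the other motifs. Of the 32851 promoters in the table, 49.6% held CAGAC, 8.46% the NF-κB consensus and 7.81% TGANTCA, and a match describes the letters only. Over the 12732 promoters of genes tested, the shares were 47.4%, 10.5% and 5.05%, respectively. Of the other promoters, that of *Tgfbr2* and 1 of the 2 listed for *Tgfbr1* held CAGAC once, and none of the 3 motifs was matched in that of *Smad3*. The stretch of *Tgfb1* was rich in G and C (75.2%, higher than in 96.1% of the promoters), and that of *Tgfb2* was close to the median of 52.4% (53.6%).

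**Figure D2:**
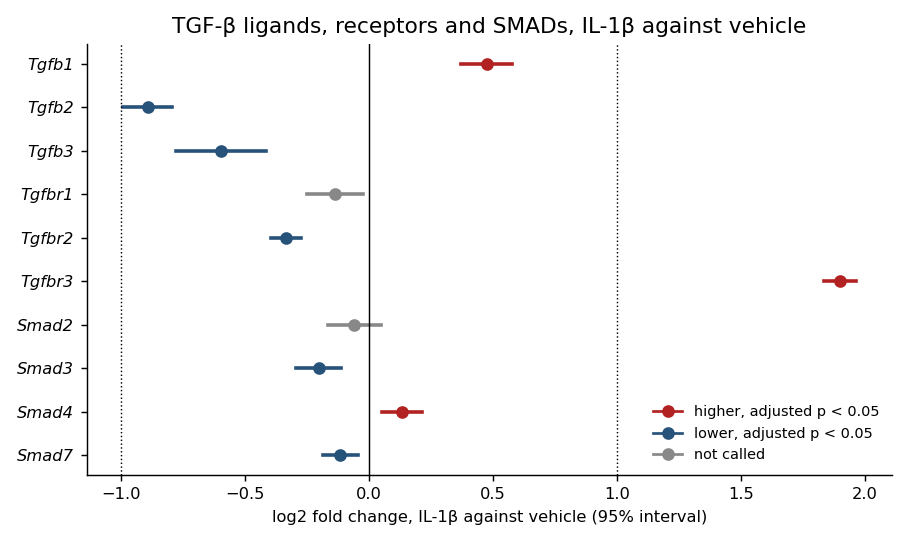
Log2 fold change of each gene between IL-1β and vehicle (points) with its 95% interval (lines), in red for genes that rose, blue for genes that fell and grey for genes that did not pass the test. Dotted lines mark log2 fold changes of -1 and 1: *Tgfbr3*, at 1.90, is the only gene past either, and *Tgfb2*, at -0.89, comes nearest to the lower line.

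The receptor genes followed. *Tgfbr3* (ENSMUSG00000029287.14, chromosome 5, 107106570 to 107289629, minus strand) encodes betaglycan, a membrane proteoglycan without kinase activity that presents ligand to the type II receptor and whose shed extracellular part binds ligand in solution. It had 278.7, 274.6, 278.7 and 276.3 CPM in the IL-1β samples and 71.4, 73.6, 75.7 and 76.6 CPM in the vehicle samples. The spread within a group was small beside the difference, with coefficients of variation of 0.726% and 3.15%, where counting alone gives 1.61% and 2.91%. The log2 difference came to 1.90 (standard error 0.0315, adjusted p = 1.64e-27 from edgeR), a rise of 3.73-fold (95% interval 3.57 to 3.90), which ranked 133rd among the rises of the 14404 genes tested. Over 14 alternatives, each sample left out in turn among them, it stayed between 1.88 and 1.91. Of the exon bases of *Tgfbr3*, 4.54% are shared with *Gm43422* on the same strand, which had 39 to 59 counts with IL-1β and 13 to 21 counts with vehicle, against 3083 to 4677 and 1058 to 1270 counts of *Tgfbr3*. Of the 5 fibroblast and perichondrial markers, *Pdgfra* and *Pdpn* rose in the same samples. The others were under the filter: *Thy1* (0.176 CPM with IL-1β, 0.435 CPM with vehicle), *Pi16* (0.265 and 0.283 CPM) and *Dpt* (0.0731 and 0.0957 CPM). Whether the rise of *Tgfbr3* has to do with these markers was not tested.

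*Tgfbr2* (ENSMUSG00000032440.13, chromosome 9, 116084293 to 116175360, minus strand) encodes the type II receptor, the kinase that ligands bind first. Its levels were 128.9, 127.9, 128.1 and 130.7 CPM with IL-1β and 163.2, 158.4, 167.6 and 160.6 CPM with vehicle. The highest IL-1β sample was below the lowest vehicle sample, by -0.33 on the log2 scale (standard error 0.0297, adjusted p = 2.09e-10 from edgeR), or 0.794 as a fold (95% interval 0.761 to 0.828).

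*Tgfbr1* (ENSMUSG00000007613.15, chromosome 4, 47353222 to 47414931, plus strand) encodes the type I receptor, also called ALK5, which phosphorylates SMAD2 and SMAD3. It had 35.3, 31.3, 29.3 and 31.2 CPM with IL-1β and 34.6, 33.3, 36.5 and 34.6 CPM with vehicle. The groups overlapped because IL-1β replicate 1 lay among the vehicle samples. The log2 difference of -0.14 (standard error 0.0552) just missed the threshold (adjusted p = 0.0512 from edgeR), with a 95% interval of the fold of 0.842 to 0.985. This verdict rested on single samples: the adjusted p-value was 0.00687 without IL-1β replicate 1 and 0.0458 without vehicle replicate 2, and over all alternatives it ranged up to 0.215.

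The SMAD genes differed by less. *Smad3* (ENSMUSG00000032402.12, chromosome 9, 63646767 to 63757994, minus strand) encodes a receptor-activated SMAD that binds DNA directly. It had 51.4, 47.5, 52.9 and 53.9 CPM with IL-1β and 56.3, 59.5, 59.5 and 61.8 CPM with vehicle. Every IL-1β sample was below every vehicle sample, and the fold came to 0.869 (95% interval 0.815 to 0.926, log2 fold change -0.20, standard error 0.0446, adjusted p = 0.000497 from edgeR).

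The study looked for predicted targets of the microRNA *miR-146a-5p*, with conserved sites, among the genes downregulated by IL-1β. Here the 10 genes were searched for its sites whatever their direction, and conservation of a site was not assessed. The mature microRNA, from RefSeq (GRCm38.p6, chr11:43374435-43374456, minus strand), is given with its seed, bases 2 to 8, in capitals and, beside it, the site of *Smad3* with the match in capitals.
miR-146a-5p: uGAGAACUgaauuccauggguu
Smad3 site: tcccaaatcAGTTCTCcttttcgta
The site of *Smad3* pairs with the whole seed and lies at bases 1946 to 1952 of a 3′ UTR of 3495 bases (chr9:63648310-63648316, minus strand). In the longest coding transcript of each gene, *Smad3* held this site, *Smad4* held 1 site of 8 bases, and the other 8 genes held no site of 7 or 8 bases. A site of either length was present in 20.7% of the 11958 tested genes with an annotated 3′ UTR. Shorter 6mer matches lay in *Tgfb3*, *Tgfbr1*, *Tgfbr3* and *Smad2*, and *Smad3* held a 6mer besides its longer site. Of the 2 genes with a site of 7 or 8 bases, *Smad3* fell (0.869-fold) and *Smad4* rose (1.10-fold), and the microRNA itself was not measured in these libraries.

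*Smad2* (chromosome 18, 76241580 to 76310963, plus strand) encodes the other receptor-activated SMAD of the pathway. It had 36.3, 36.6, 39.6 and 37.1 CPM with IL-1β and 39.5, 35.6, 39.4 and 41.9 CPM with vehicle, so the groups overlapped. Its fold was 0.960 (log2 fold change -0.059, standard error 0.0518, adjusted p = 0.406 from edgeR), and the 95% interval ran from 0.892 to 1.03.

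*Smad4* (chromosome 18, 73639009 to 73703780, minus strand) encodes the common partner of the activated SMADs, including those of the BMP pathway. It had 76.0, 69.2, 73.1 and 71.6 CPM with IL-1β and 65.5, 64.6, 66.9 and 67.4 CPM with vehicle, and was thus the only SMAD gene of the 4 that rose. The fold was 1.10 (95% interval 1.04 to 1.16, log2 fold change 0.13, standard error 0.0395, adjusted p = 0.00796 from edgeR). *Smad7* (chromosome 18, 75367529 to 75395935, plus strand) encodes the inhibitory SMAD, which blocks the type I receptor, and is itself induced by TGF-β. Its levels were 101.2, 96.4, 98.6 and 100.7 CPM with IL-1β and 110.8, 105.0, 105.0 and 108.6 CPM with vehicle. The groups did not overlap, but the fold was close to 1 (0.923, 95% interval 0.880 to 0.969, log2 fold change -0.12, standard error 0.0342, adjusted p = 0.00767 from edgeR).

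Levels of different genes were compared per length, as CPM per kilobase of exon (CPM per kb). With vehicle, *Smad7* was the highest of the 10 genes, at 23.7 ± 0.640 CPM per kb (SD, n = 4), followed by *Tgfbr2* at 19.8 ± 0.480, *Smad4* at 17.8 ± 0.340 and *Tgfbr3* at 11.4 ± 0.357. Lower levels were those of *Smad2* at 11.0, *Smad3* at 10.7, *Tgfb2* at 9.25, *Tgfb1* at 6.67, *Tgfbr1* at 5.32 and *Tgfb3* at 5.08 CPM per kb. The samples of neighbors in this order overlapped for *Tgfbr3* and *Smad2*, for *Smad2* and *Smad3*, and for *Tgfbr1* and *Tgfb3*. With IL-1β, *Tgfbr3* was the highest, at 42.3 ± 0.307 CPM per kb, and *Smad7* followed at 21.9 ± 0.485 CPM per kb. *Tgfb1*, at 9.24 CPM per kb, then stood above *Tgfb2*, at 4.97 CPM per kb, the reverse of their order with vehicle, and the overlapping neighbors were *Smad3* with *Tgfb1* and *Tgfb2* with *Tgfbr1*. Among all genes tested, the level of *Tgfbr3* per kb was above that of 73.9% with vehicle and of 93.5% with IL-1β, while *Tgfb2* went from 69.3% to 52.7%. The exon length used for *Smad2*, 3549 bases, is shorter than the 8781 bases that the later GENCODE release vM21 gives it, and its level per kb refers to the counted exons only. The other 9 lengths were identical in that release.

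The makeup of the ligand and receptor transcripts changed accordingly. The summed level of the 3 ligand genes was 17.6 ± 0.734 CPM per kb (SD, n = 4) with IL-1β and 21.0 ± 0.466 CPM per kb with vehicle. Of this sum, *Tgfb1* made up 52.7 ± 1.65% with IL-1β and 31.8 ± 0.674% with vehicle, *Tgfb2* made up 28.3 ± 0.788% and 44.0 ± 1.79%, and *Tgfb3* made up 19.0 ± 2.09% and 24.2 ± 1.66%. The summed level of the 3 receptor genes was 62.9 ± 0.583 CPM per kb with IL-1β and 36.5 ± 0.827 CPM per kb with vehicle. *Tgfbr3* held 67.3 ± 0.474% of it with IL-1β and 31.1 ± 0.797% with vehicle, *Tgfbr2* held 25.0 ± 0.271% and 54.3 ± 0.658%, and *Tgfbr1* held 7.73 ± 0.560% and 14.6 ± 0.249%. The type II receptor was thus the most abundant receptor transcript with vehicle and the co-receptor with IL-1β, in every sample.

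**Figure D3:**
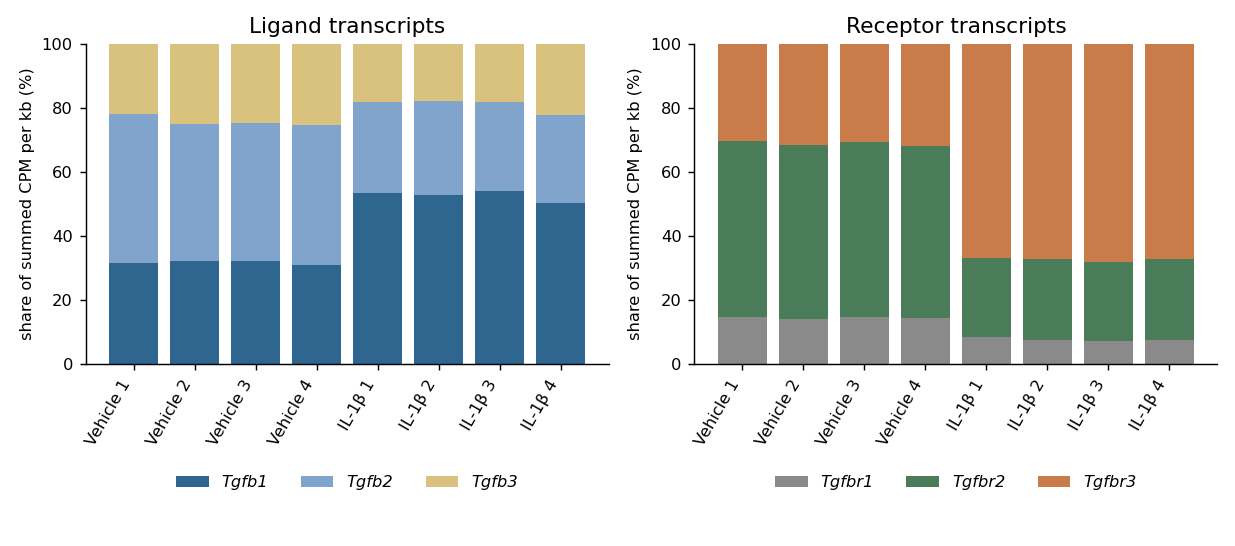
Share of each ligand gene (left) and each receptor gene (right) in the summed CPM per kb of its role, in percent, with 1 stacked bar for each of the 8 samples. *Tgfb1* holds 50.3 to 54.0% of the ligand bars with IL-1β and 30.9 to 32.4% with vehicle, and *Tgfbr3* holds 66.8 to 67.9% of the receptor bars with IL-1β and 30.2 to 32.0% with vehicle.

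Whether genes of the same role differed in their response was tested with 8 ratios of counts within a sample, which do not depend on scaling between samples (two-sided exact permutation test, with p-values adjusted by Benjamini-Hochberg over all 8). The smallest p that 4 samples against 4 allow is 0.0286, or 0.0381 after adjustment here, and 6 ratios reached it. For *Tgfb2*/*Tgfb1*, *Tgfb3*/*Tgfb1* and *Tgfbr3*/*Tgfbr2* this outcome was fixed by the levels above. Each of these pairs holds a gene that rose and a gene that fell, both without overlap of the groups. Their p-values therefore add nothing to the results of the single genes. The ratio of *Tgfb2* to *Tgfb1*, per length, was 0.538 with IL-1β and 1.39 with vehicle, and their log2 ratio differed by -1.37 (standard error 0.0443). That of *Tgfb3* to *Tgfb1* differed by -1.08 (standard error 0.111), and that of *Tgfb3* to *Tgfb2* by 0.29 (standard error 0.120). The ratio of *Tgfbr3* to *Tgfbr2*, per length, was 2.69 with IL-1β and 0.572 with vehicle, a difference in log2 ratio of 2.23 (standard error 0.0285). That of *Tgfbr3* to *Tgfbr1* differed by 2.03 (standard error 0.0628), and that of *Tgfbr2* to *Tgfbr1* by -0.20 (standard error 0.0572). In all 6 of these ratios, the IL-1β and vehicle samples did not overlap, which reaching the smallest p entails. With a sample left out, the adjusted p of a ratio at the smallest possible p depends on how many of the 8 ratios reach it. A ratio can thus miss the threshold with no weaker difference: that of *Tgfbr3* to *Tgfbr2* stayed between 2.21 and 2.25. Each of the 6 ratios kept its direction with single samples left out. None passed the adjusted threshold without vehicle replicate 2, 3 or 4 (adjusted p of 0.0571 or 0.0762, exact permutation test). That of *Tgfb3* to *Tgfb2* also missed it without vehicle replicate 1 (0.21, adjusted p = 0.0571, exact permutation test) or IL-1β replicate 4 (0.20, adjusted p = 0.0653, exact permutation test), and that of *Tgfbr2* to *Tgfbr1* without vehicle replicate 1 (-0.20, adjusted p = 0.0571, exact permutation test). The ratio of *Smad3* to *Smad2* differed by -0.14 (standard error 0.0617, p = 0.0571, adjusted p = 0.0653, exact permutation test) and that of *Smad7* to *Smad3* by 0.092 (standard error 0.0499, p = 0.114, adjusted p = 0.114, exact permutation test), and the groups overlapped in both.

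Other genes of the pathway were described in 4 lists. In the list of latency and activation, 5 genes rose and 13 fell among the 20 of 23 genes abundant enough to be tested, with a median log2 fold change of -0.33. Over all genes tested, 20.4% rose and 19.8% fell, with a median of -0.0012. *Ltbp1*, which encodes a latent TGF-β binding protein, fell to 199 ± 8.15 CPM (SD, n = 4) from 390 ± 3.58 CPM (log2 fold change -0.97), whereas *Ltbp2*, a member of the same protein family that does not bind latent TGF-β, rose, with 165 ± 5.64 CPM against 39.0 ± 0.721 CPM (log2 fold change 2.08). *Thbs1*, which encodes an activator of latent TGF-β and is the most abundant of the list per length, fell with a log2 fold change of -1.66. *Pcsk6*, encoding a proprotein convertase, fell from 270 ± 7.70 CPM to 100 ± 5.83 CPM (log2 fold change -1.43). The proteoglycan genes *Fmod* and *Dcn*, whose products bind TGF-β, moved apart, with log2 fold changes of -2.09 and 1.52. *Bgn*, another proteoglycan gene of the list, fell with -0.65. *Lrrc32*, encoding the cell-surface anchor of latent TGF-β called GARP, rose, with 74.9 ± 2.73 CPM against 29.3 ± 2.85 CPM (log2 fold change 1.36, adjusted p = 8.61e-19 from edgeR). *Ltbp1*, *Bgn* and *Lrrc32* were named after their values were seen. *Nrros*, *Itgb6* and *Aspn* did not pass the filter.

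Of the 14 receptor partners, all of which were tested, 6 rose, 5 fell and 3 did not pass the test, and none was a DEG, against 20.4% up, 19.8% down and 5.21% DEGs over all genes tested. Their median log2 fold change was 0.027. *Cd109*, whose product is a co-receptor that dampens the signal, fell from 288 ± 4.87 CPM (SD, n = 4) to 167 ± 5.55 CPM (log2 fold change -0.78). *Ldlrad4*, encoding an inhibitor of SMAD2 and SMAD3 activation, rose with a log2 fold change of 0.73, and *Ptprk*, encoding a receptor phosphatase, with 0.48. *Fkbp1a*, which encodes a protein that binds the type I receptor and was the most abundant of the list per length over all 8 samples and with vehicle but not with IL-1β, rose with a log2 fold change of 0.12. *Acvrl1*, an alternative type I receptor gene, and *Bambi*, which encodes a decoy receptor, were scarce, at 1.34 and 4.02 CPM with IL-1β and 0.770 and 5.56 CPM with vehicle. Their log2 fold changes of 0.77 (adjusted p = 0.0300 from edgeR) and -0.46 (adjusted p = 0.0250 from edgeR) did not hold when single samples were left out, where the adjusted p-value reached 0.141 and 0.117, and their groups overlapped. With DESeq2 the adjusted p-value of *Acvrl1* was 0.0812. For *Acvrl1* this was so without IL-1β replicate 4 or without vehicle replicate 1, 3 or 4, and for *Bambi* without IL-1β replicate 1, 2 or 3 or without vehicle replicate 2 or 3.

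Among the SMAD partners and regulators, 5 rose, 6 fell and 10 did not pass the test, with no DEG among the 21 of 22 genes tested (*Foxh1* was under the filter) and a median log2 fold change of -0.046. The shares over all genes tested were 20.4% up, 19.8% down and 5.21% DEGs. *Smad9*, a mediator of BMP signaling, fell by 0.86 on the log2 scale, with 39.9 ± 3.02 CPM against 72.9 ± 2.41 CPM (SD, n = 4), and the inhibitory *Smad6* fell with -0.31. *Tgif1*, encoding a repressor that binds activated SMADs, rose by 0.71 on the log2 scale, with 148 ± 6.45 CPM against 90.5 ± 0.339 CPM, and *Smurf1*, encoding a ubiquitin ligase that acts on SMADs and receptors, rose with a log2 fold change of 0.50. *Pmepa1*, an inhibitor that TGF-β induces, fell with -0.49, and *Ctdsp2*, a SMAD phosphatase gene and the most abundant of the list per length, fell with -0.21.

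**Figure D4:**
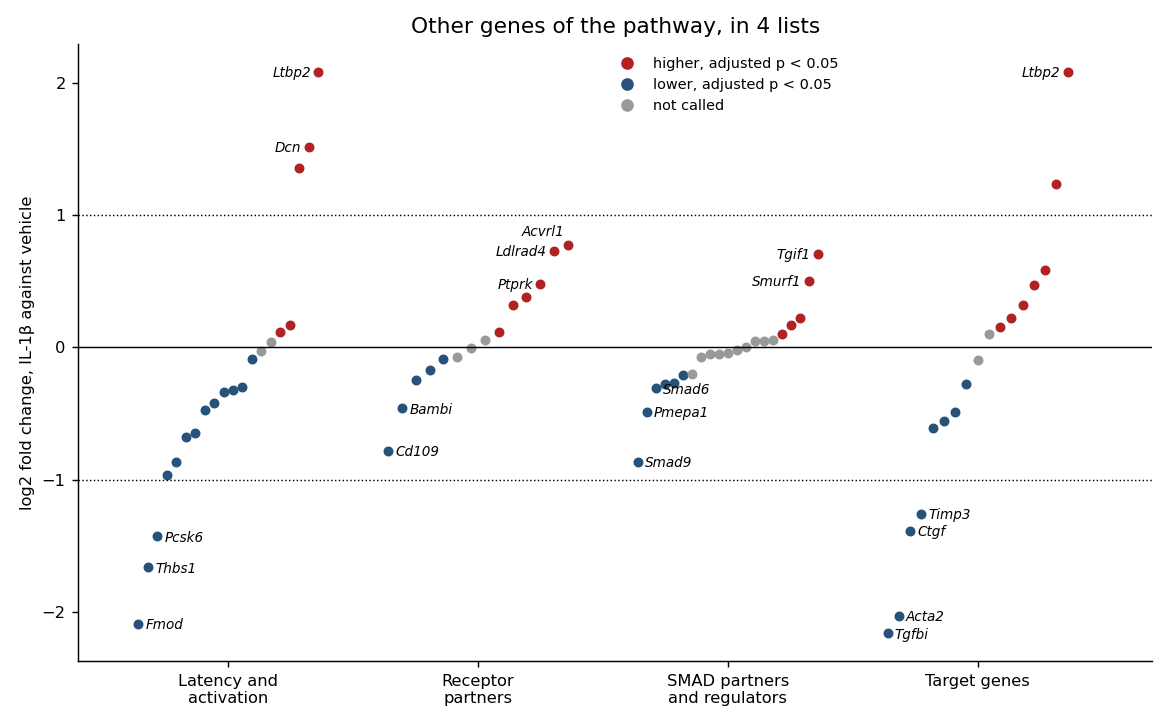
Log2 fold changes with IL-1β against vehicle in 4 lists of the TGF-β pathway, with 1 point per gene ordered by value within its list, in red for genes that rose, blue for genes that fell and grey for genes that did not pass the test. Up to 5 genes per list are named. The lists of latency and activation and of target genes reach past the dotted lines at -1 and 1 in both directions, and the other lists stay within them.

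In the list of target genes, 7 rose and 8 fell among the 17 of 20 genes tested, against 20.4% and 19.8% of all genes tested, and their median log2 fold change was -0.097. The genes past the fold threshold were split, with 2 up and 4 down, against 2.86% and 2.35% of all genes tested. *Tgfbi*, named for its induction by TGF-β, fell from 50.0 ± 2.69 CPM (SD, n = 4) to 11.1 ± 1.11 CPM (log2 fold change -2.16), *Acta2*, a smooth muscle actin gene, with -2.03, *Ctgf*, a matricellular growth factor gene, with -1.39, and *Timp3*, a metalloproteinase inhibitor gene, with -1.26. *Fn1*, the fibronectin gene and the most abundant of the list per length, fell with a log2 fold change of -0.56. *Ltbp2*, which is in this list too, rose, as did *Prg4*, encoding lubricin, at 2017 ± 47.2 CPM against 859 ± 21.8 CPM (log2 fold change 1.23). *Prg4* was named after its values were seen. *Postn*, *Tagln* and *Cnn1* were under the filter. These genes respond to other signals as well, so their direction does not measure TGF-β signaling.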

How the data were processed

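Per the labels and the study's methods, the authors used cutadapt for trimming, STAR for alignment (mm10, GENCODE vM20) and featureCounts for counting. The deposited values are whole-number counts per gene symbol, beside a column of exon lengths in bases. Whether these counts precede the batch correction with RUVseq named in the methods, and whether strand was used in counting, is not given in the sources used here. Every count column, 1 per sample, was used, and miRNA-Seq was not analysed here.

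Counts were normalized by TMM and compared by edgeR 4.0.16 in R 4.3.3 (limma 3.58.1) using the quasi-likelihood test, with no covariate besides treatment. Genes needed a CPM over 1 in 4 or more samples, which 14404 met. Intervals are 95% intervals from that fit. Ratios were compared over all 70 splits of 4 against 4. The model code was tested on simulated data. Alternatives were DESeq2 1.42.0, other scaling and filters, the replicate number as a block, and each sample left out. Figures were drawn with matplotlib 3.10.9. Positions, overlaps and 3′ UTRs came from GENCODE vM21 (GRCm38), and promoters and the microRNA from RefSeq.

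The 10 genes and the lists were chosen with earlier results of these data known. Named genes were the 10, and in each list up to 5 genes with the largest absolute log2 fold change among those that passed the test and the most abundant per length. The total per sample was 10992355 to 17456063 counts, at which 3 counts are 0.172 to 0.273 CPM. Counting alone gives the 10 genes a coefficient of variation of 1.61 to 7.95%, and between samples of a group it was 0.726 to 11.8%.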

Additional observations from a re-analysis of the deposited data

Results flagged for a closer look

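Dixon's ratio was computed for 66 sets of 4 samples: the 10 genes, 22 genes named from the lists, and library totals, for IL-1β and vehicle separately. In 1 set, a single sample stood apart from its group beyond the 95% limit, where chance alone gives about 1 in 20, or 3.3 sets. That set was *Smad9* with vehicle, in which replicate 3 was low at 69.3 CPM while the other samples lay between 74.0 and 74.2 CPM.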

How the results depend on the processing

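Over the 14 alternatives, the 8 genes that rose or fell kept their direction and stayed past the threshold, and *Smad2* never passed it. *Tgfbr1* ranged from -0.185 to -0.0943 with single samples left out and passed the threshold in 2 of these 8 fits. Without a filter on low counts, 635 DEGs were upregulated and 571 downregulated over 32379 genes, and with a CPM above 1 in all 8 samples 266 were upregulated over 12964 genes, against 412 and 339. With the replicate number as a block, 411 and 340 DEGs were called, 745 of them shared, and no call among the 10 genes changed; deviations of same-numbered samples from their group means correlated with r of -0.0653 to 0.0321, and 0 of 8 samples correlated best with its own number. For the ratios, pairing by the replicate number left the differences of *Tgfb2*/*Tgfb1* at -1.37, *Tgfb3*/*Tgfb1* at -1.08, *Tgfb3*/*Tgfb2* at 0.29, *Tgfbr2*/*Tgfbr1* at -0.20, *Tgfbr3*/*Tgfbr1* at 2.03 and *Tgfbr3*/*Tgfbr2* at 2.23 (adjusted p = 0.143 from an exact permutation of signs, the smallest reached with 4 pairs). With single samples left out, these ranged from -1.39 to -1.34, -1.18 to -1.04, 0.199 to 0.336, -0.238 to -0.151, 1.99 to 2.08 and 2.21 to 2.25, with adjusted p-values of up to 0.0762 (exact permutation test). Without vehicle replicate 2, 3 or 4 none of the 6 passed the threshold, without vehicle replicate 1 *Tgfb3*/*Tgfb2* and *Tgfbr2*/*Tgfbr1* did not, and without IL-1β replicate 4 *Tgfb3*/*Tgfb2* did not. In such fits, the adjusted p of a ratio at the smallest possible p depends on how many of the 8 ratios reach it. *Smad7*/*Smad3* ranged from 0.0688 to 0.133 and had an adjusted p of 0.0457 without vehicle replicate 1 (exact permutation test). Without division by length, the shares of *Tgfb2*, *Tgfb3*, *Tgfbr1* and *Tgfbr2* differed between the groups by -18.1, -3.42, -5.53 and -30.4 percentage points, against -15.7, -5.16, -6.83 and -29.3. With 4 samples a group, *Tgfb3* had the widest interval of the 10 genes on the log2 scale, and its 113 to 316 counts per sample limit its precision.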
